A study of Mus musculus with 4 samples.

Results

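Smooth muscle contractile genes and muscarinic acetylcholine receptors were examined in the lungs of wild-type (WT) and Rab44-knockout (Rab44-KO) mice. The set was chosen by name and held 9 of the 41079 genes in the count table. It comprised 7 contractile genes (Acta2, Myh11, Cnn1, Tagln, Des, Actg2 and Lmod1) and the receptor genes Chrm2 and Chrm3. All 9 had at least 10 counts in every library.

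RNA-seq was performed on total RNA of whole lung, with 4 libraries in all and 1 library in each group. Normal and OVA-induced lungs were taken from each genotype, and series of 4 values are given in the order normal WT, then normal Rab44-KO, then OVA-induced lungs of WT and last of Rab44-KO. Both genotypes were female littermates aged 8 to 14 weeks on a C57BL/6 background, and the knockout had been made with CRISPR/Cas9. OVA-induced mice received 100 µg of ovalbumin (OVA) with the adjuvant alum into the peritoneum on days 0, 7 and 14. They then received 100 µg of OVA in 50 µL through the nose for 4 days, and lungs were collected on day 21. The normal mice were labelled as not treated, although the shared protocol also names a PBS challenge. The number of mice behind a library was not stated. Total counts ranged from 18112901 to 19910236. Rab44, the targeted gene, had 251 counts in WT and 1 in Rab44-KO under normal conditions, and 810 and 0 after OVA. With 1 library per group no comparison of 2 libraries could be tested, and no p-value is given. Each value carries a 95% interval that covers counting error only, not the spread between mice.

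Smooth muscle shortens when myosin II pulls on actin filaments. Acetylcholine from airway nerves acts on muscarinic receptors, and the M3 receptor (Chrm3) raises intracellular calcium and contracts the airway. The M2 receptor (Chrm2) lowers cyclic AMP, and it is also the main muscarinic receptor of heart muscle. Airway walls and vessel walls share most of the contractile genes. The walls of the large pulmonary veins of mice also contain heart muscle.

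Whole-lung RNA therefore did not separate airway from vascular muscle, and fewer cells of a type and less RNA per cell cannot be told apart in it. None of the 6 listed airway smooth muscle markers and none of the 13 listed pericyte and vascular markers was at 0 in any library. The summed level of the airway list, in counts per 1000000 (CPM), was 228 for WT and 251 for Rab44-KO in normal lungs, and 152 for both in OVA-induced lungs. Actc1, the cardiac actin that mouse airway muscle also expresses, had 139, 154, 98.7 and 84.8 CPM, and Hhip, an inhibitor of hedgehog signalling found in airway smooth muscle, had 72.8, 78.5, 41.4 and 49.2 CPM. Lgr6, a receptor of the R-spondin family, had another order, with 13.1, 15.6, 9.09 and 16.2 CPM. Between the OVA-induced libraries 3 of the 6 were higher in Rab44-KO and 3 lower. Of these, 2 were over 2-fold lower, against 7.34% of all genes, and 0 over 2-fold higher, against 8.4%. Between the normal libraries 1 was over 2-fold lower in Rab44-KO, against 2.0%. In each Rab44-KO library 2 of the 6 had under 10 counts. The summed level of the pericyte and vascular list was 1259, 1208, 1050 and 1195 CPM. The set is called smooth muscle here, since airway muscle could not be read apart from vascular muscle.

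Acta2 and Actg2 encode the α and γ smooth muscle actins, and their coding sequences are close relatives. Over 1131 aligned coding bases, 955 were identical, which is 84.4%. The longest identical run was 29 bases, against sequenced reads of 150 bases. No window of 150 bases in an Acta2 or Actg2 transcript occurred in a transcript of any other gene of GENCODE M21. The stretch around the longest identical run is shown because reads have to be assigned between the pair by its differing bases. It was read 5′ to 3′ on the coding strand of each transcript, and capitals mark the 13 bases of 89 at which the pair differ.
Acta2 (coding bases 607 to 695): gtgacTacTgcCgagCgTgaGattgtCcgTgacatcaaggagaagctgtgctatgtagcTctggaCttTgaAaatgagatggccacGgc
Actg2 (coding bases 604 to 692): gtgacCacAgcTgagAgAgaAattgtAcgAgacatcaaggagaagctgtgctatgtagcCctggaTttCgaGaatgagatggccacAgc
In GRCm38 the Acta2 stretch ran over exon 6 (chr19:34246078-34246087) and exon 7 (chr19:34245025-34245103) of the minus strand. The Actg2 stretch ran over exon 6 (chr6:83520656-83520665) and exon 7 (chr6:83519881-83519959), also on the minus strand.

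The other members lie on 5 chromosomes of GRCm38. Acta2 as a whole spans chr19:34241090-34255590 and Actg2 spans chr6:83512905-83536265. Myh11, the smooth muscle myosin heavy chain, lies at chr16:14194535-14291372 on the minus strand. Cnn1, encoding calponin, lies at chr9:22099216-22109630 on the plus strand. Tagln, encoding transgelin (SM22), lies at chr9:45929619-45936058 on the minus strand. Des, encoding the intermediate filament protein desmin of all muscle types, lies at chr1:75360329-75368579 on the plus strand. Lmod1, encoding the smooth muscle actin nucleator leiomodin 1, lies at chr1:135324807-135368065 on the plus strand. Chrm2 lies at chr6:36388084-36528414 on the plus strand and Chrm3 at chr13:9875486-10360847 on the minus strand. Exons of Tagln overlapped exons of Pcsk7 on the opposite strand, and 40.2% of the 150-base windows of Tagln transcripts were shared with the antisense gene Gm48529. Exons of Des overlapped the antisense gene Gm15179, which had at most 3 counts and shared 1.95% of the windows of Des. Exons of Chrm2 overlapped 9330158H04Rik on the opposite strand, which had 44, 45, 26 and 39 counts and shared 0 windows. The strand setting of the counting was not stated. Tagln reads, and reads of Des and Chrm2 in these overlaps, therefore could not be told from those of their antisense partners.

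Levels between genes were compared in TPM, a transcript abundance that is scaled by gene length and sums to 1000000 in each library. In normal WT lung Tagln was highest, at 304 TPM, followed by Acta2 at 213 TPM. Myh11 at 108 and Des at 103 TPM were next to each other, then Cnn1 at 70.5 and Actg2 at 49.4 TPM. Lmod1 stood at 20.0, Chrm2 at 16 and Chrm3 at 2.43 TPM. Chrm3, the receptor tied to contraction, was thus the lowest of the set, and it stayed last in all 4 libraries. Tagln led in both normal libraries and Acta2 led in both OVA-induced libraries, with 291 against 273 TPM in WT and 270 against 226 TPM in Rab44-KO. The order of neighbours this close was not tested.

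**Figure D1:**
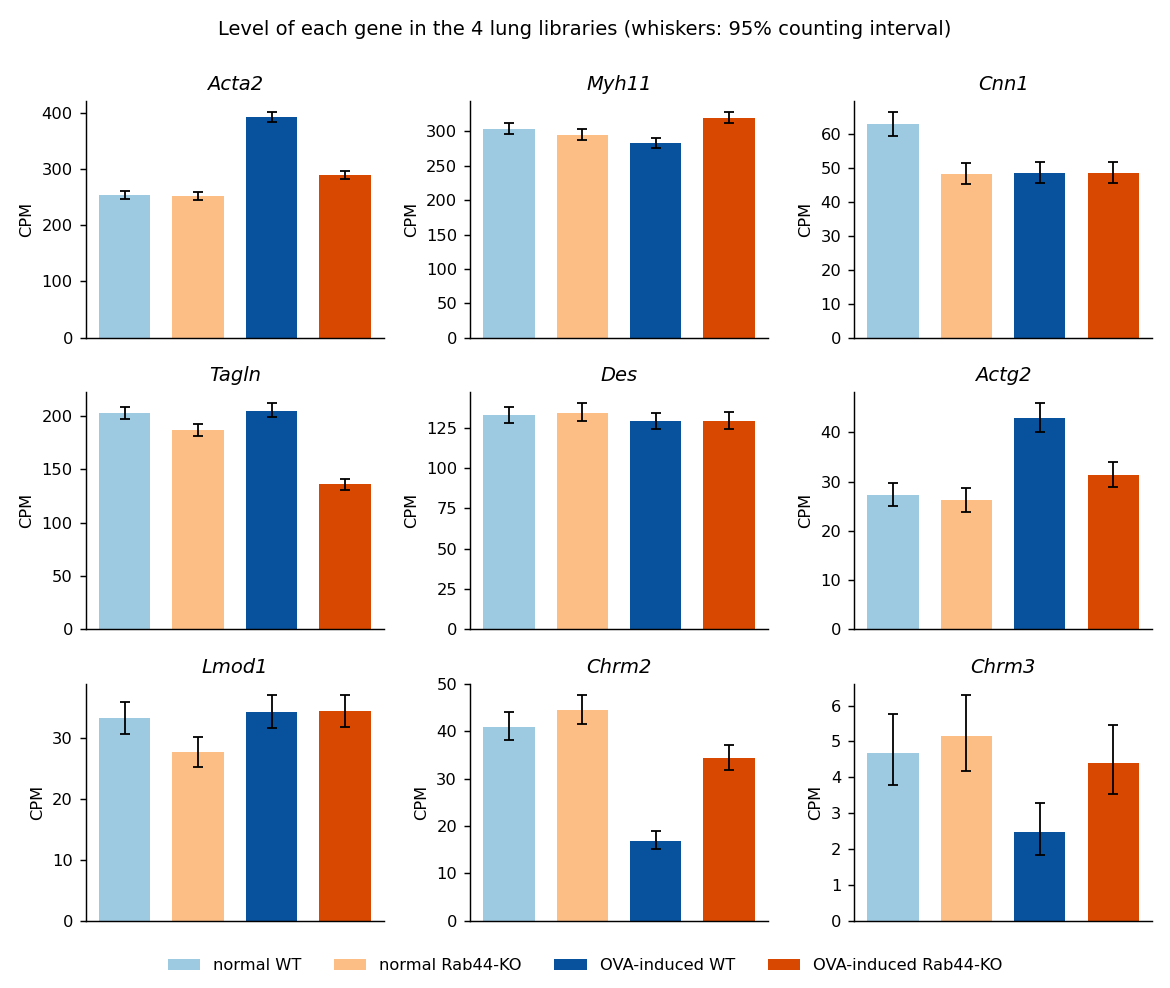
Level of each gene in CPM (y axis, from 0) in the 4 libraries, 1 bar per library, with whiskers for the 95% Poisson counting interval. Acta2 and Actg2 were highest in the OVA-induced WT library, Tagln was lowest in the OVA-induced Rab44-KO library, and Chrm2 and Chrm3 were lowest in the OVA-induced WT library.

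Under normal conditions, the question was whether loss of Rab44 went with a difference in the muscle genes of untreated lung. Acta2, Myh11, Des and Actg2 were nearly level between normal Rab44-KO and normal WT, while Cnn1, Lmod1 and Tagln were lower in Rab44-KO. No member was over 2-fold higher, against 2.77% of the 18718 genes compared, and none was over 2-fold lower, against 2.0%. The median log2 fold change (log2FC) of the 9 members was -0.04, against 0.00 for all genes.

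Acta2 was counted 4874 times in WT and 4600 times in Rab44-KO, which is 254 and 252 CPM. Myh11 had 5835 and 5378 counts, or 304 and 295 CPM. The counting intervals of both log2FC values, -0.01 and -0.04, included 0.

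Cnn1 showed the largest difference of the set, with 1205 counts in the WT library and 880 in that of Rab44-KO. Its log2FC was -0.38 (-0.51 to -0.25). Lmod1 had 637 and 503 counts, a log2FC of -0.27 (-0.44 to -0.10), and Tagln had a log2FC of -0.12 (-0.19 to -0.05). These 3 genes were the members whose counting interval lay below 0, where 14.8% of all genes compared had such an interval. For 0 members it lay above 0, against 14.6% of all genes. The receptors were near level, with 788 and 813 counts of Chrm2 and 90 and 94 counts of Chrm3.

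OVA treatment of WT mice raises the question of what allergic inflammation does to the muscle genes, and the 2 WT libraries were compared for it. Here the 2 actins stood higher and the 2 muscarinic receptors lower in the OVA-induced library, while the remaining contractile genes lay between -0.37 and 0.04 in log2FC. The members' median log2FC was -0.05 and that of all genes 0.00. One member, Chrm2, was over 2-fold lower, against 5.2% of the 19023 genes compared, and 0 were over 2-fold higher, against 8.99%.

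Acta2 had 4874 counts before and 7586 after OVA in WT, a log2FC of 0.63 (0.57 to 0.68). Actg2 had 525 and 831 counts, a log2FC of 0.65 (0.49 to 0.81). The level of both actins in OVA-induced WT was above that in each of the other libraries, and their counting intervals did not overlap. Counts of Actg2 per 100 counts of Acta2 were 10.8 in WT and 10.4 in Rab44-KO under normal conditions, and 11.0 and 10.8 after OVA. The share of the γ actin thus moved little across the 4 libraries.

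The myosin heavy chain did not follow the actins. Myh11 had 5835 and 5483 counts in the 2 WT libraries, a log2FC of -0.10 (-0.16 to -0.05). Acta2 counts per 100 counts of Myh11 were 83.5 (WT) and 85.5 (Rab44-KO) under normal conditions, and 138 and 90.4 after OVA. Cnn1 was lower in the OVA-induced WT library, with 942 counts against 1205 and a log2FC of -0.37 (-0.49 to -0.24). Tagln, Des and Lmod1 had log2FC of 0.02, -0.05 and 0.04, with counting intervals that included 0. The interval lay above 0 for the 2 actins, against 29.2% of all genes, and below 0 for Myh11, Cnn1 and both receptors, against 27.4%.

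Acta2 is also a marker of myofibroblasts, so a list of 19 fibroblast and myofibroblast genes was read beside it. Its summed level was 2920 CPM (WT) and 3009 CPM (Rab44-KO) under normal conditions, and 3638 and 3277 CPM after OVA. Within the list, 9 genes were higher and 10 lower in OVA-induced WT than in normal WT. Of these, 1 was over 2-fold higher, against 8.99% of all genes. Between the OVA-induced libraries 7 were higher and 12 lower in Rab44-KO, with a median log2FC of -0.24. There 1 was over 2-fold higher and 2 were over 2-fold lower, against 8.4% and 7.34% of all genes. The part of these cells in the Acta2 levels was not tested.

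**Figure D2:**
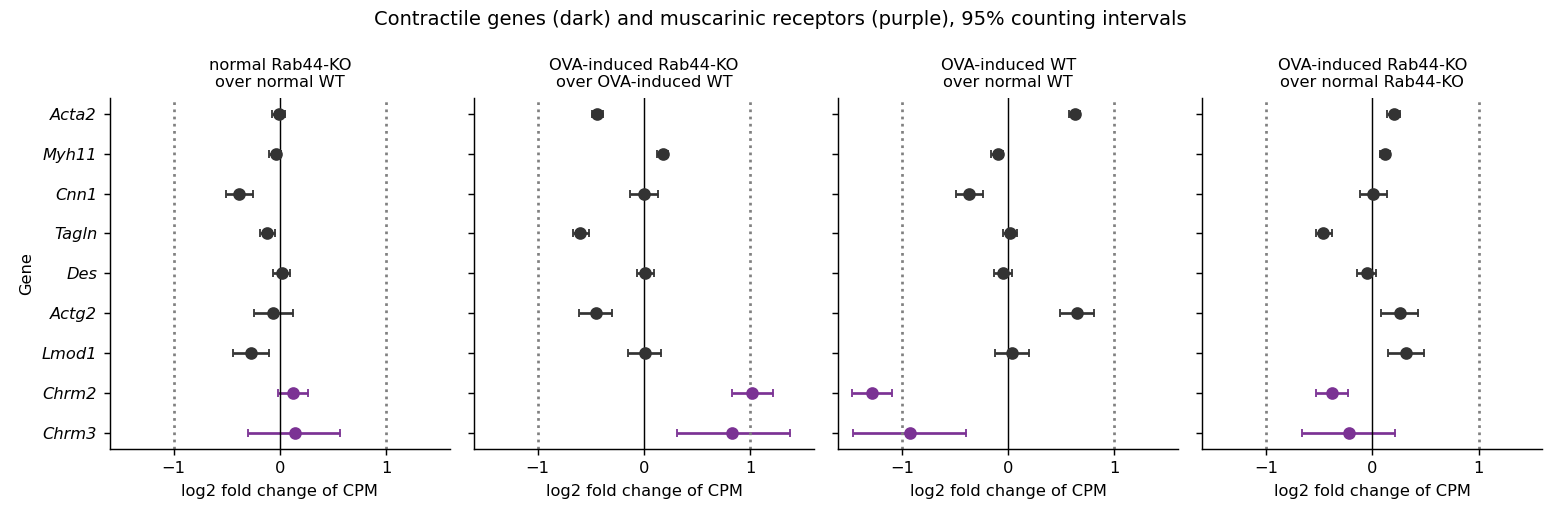
Log2FC of CPM (x axis) for each gene (y axis) in the 4 comparisons, with 95% counting intervals. Dotted lines mark 2-fold. Chrm2 is past a dotted line in the comparison of OVA-induced WT with normal WT (-1.28) and in that of OVA-induced Rab44-KO with OVA-induced WT (1.02).

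Both muscarinic receptors were lower in the OVA-induced WT library than in the other 3. Chrm2 had 788 counts in WT and 813 in Rab44-KO under normal conditions, and 328 and 669 after OVA. On the CPM scale these were 41.0, 44.5, 16.9 and 34.3. OVA-induced WT against normal WT gave a log2FC of -1.28 (-1.47 to -1.09) and a percent change of -58.7%. Chrm3 had 90, 94, 48 and 86 counts, and its log2FC between the same WT libraries was -0.92 (-1.46 to -0.40). Chrm3 rests on few counts, so its intervals are wide. Chrm3 counts per 100 counts of Chrm2 were 11.4, 11.6, 14.6 and 12.9.

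Genes of heart muscle were low in the same library as the receptors. The list of 16 heart muscle genes held Myh6, the atrial myosin heavy chain, with 5367, 6059, 1942 and 6774 counts over the 4 libraries. All 16 were lower in OVA-induced WT than in normal WT, with a median log2FC of -1.30, and 13 of them were over 2-fold lower, against 5.2% of all genes. After OVA the 16 had values above 0 for Rab44-KO over WT, with a median log2FC of 0.72, and 7 were over 2-fold higher, against 8.4% of all genes. The counting intervals of 2 of them, Myl3 at 0.09 and Ckm at 0.26, included 0. Actc1, the cardiac actin counted in the airway list, went the other way between these libraries, with 1912 and 1654 counts and a log2FC of -0.22. None of the 16 was at 0 in any library, and their summed level over the 4 libraries was 758, 835, 303 and 812 CPM. The single genes were less even: with OVA in Rab44-KO 11 of the 16 were lower, with a median log2FC of -0.31, and 3 were over 2-fold lower, against 3.85% of all genes. Nppa, the atrial natriuretic peptide, had a log2FC of -2.54 there.

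Set against the summed counts of this list, Chrm2 was more even than on the CPM scale. Chrm2 counts per 100 counts of the summed heart list were 5.41, 5.33, 5.59 and 4.22. Myh6 and Tnnt2 had the most counts of the list in each library, and single genes gave other orders. Per 100 counts of Myh6, Chrm2 gave 14.7, 13.4, 16.9 and 9.88, lowest in the OVA-induced Rab44-KO library. Per 100 counts of Myl7, the atrial light chain, it gave 55.2, 67.4, 52.4 and 70.1, highest in that library. Chrm3 gave 0.618, 0.617, 0.819 and 0.543 per 100 counts of the summed list. For Des, which heart muscle also expresses, the ratio was 17.5, 16.1, 42.5 and 15.9, and for Myh11, which marks smooth muscle, it was 40.1, 35.3, 93.5 and 39.4. Des was level on the CPM scale, at 133, 134, 129 and 129 CPM, while the heart list varied. Whether the Chrm2 and Chrm3 levels came from smooth muscle, from heart muscle or from another source was not tested.

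**Figure D3:**
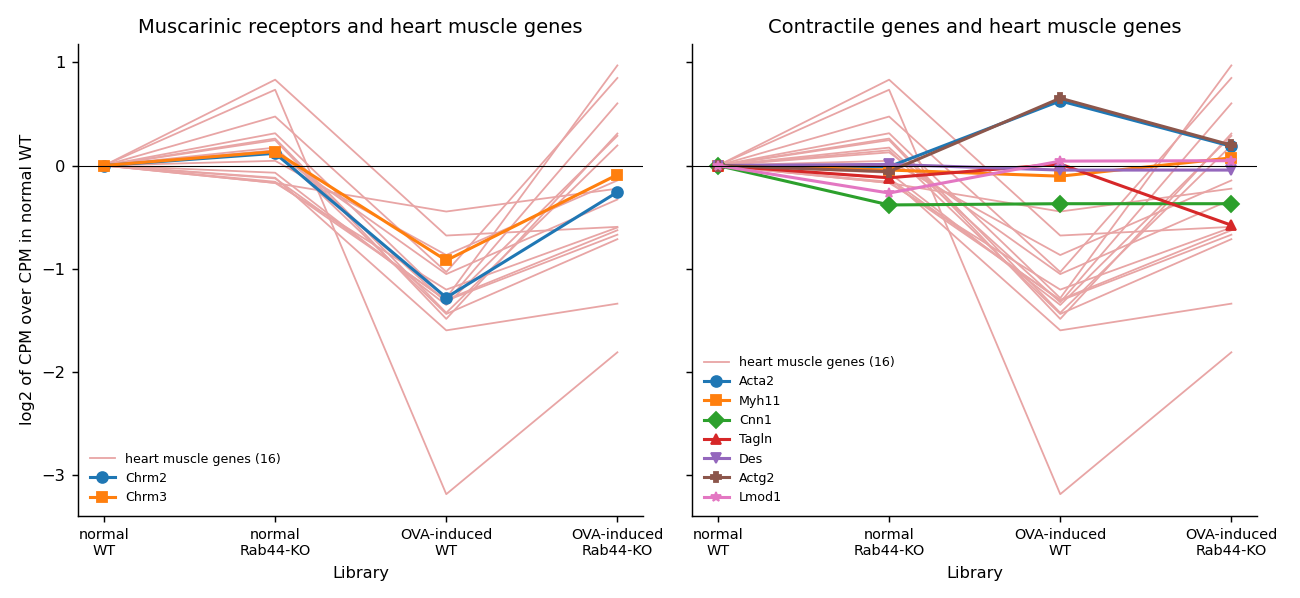
Log2 of the CPM of each gene over its CPM in the normal WT library (y axis) in the 4 libraries (x axis), with the 16 heart muscle genes as pale lines in both panels; the lines join the points of 1 gene and show no course in time. In the OVA-induced WT library Chrm2 and Chrm3 (left) and all 16 heart genes lie below their normal WT level; of the 7 contractile genes (right), Cnn1 lies at -0.37 and the others between -0.10 and 0.65.

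The comparison of OVA-induced Rab44-KO with OVA-induced WT asks how the lungs of the 2 genotypes differed after OVA. On the CPM scale the actins and Tagln were lower in the Rab44-KO library, both muscarinic receptors were higher, and Cnn1, Des and Lmod1 were level. With the relation to gene length described below removed, Actg2 came to -0.05 in log2FC, Tagln to -0.25 and Cnn1 to 0.28. One member, Chrm2, was over 2-fold higher, against 8.4% of the 19259 genes compared. None was over 2-fold lower, against 7.34%. The median log2FC of the members was 0.01 and that of all genes -0.02.

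Tagln had the lowest log2FC of the set. Its counts were 3897 in WT and 3409 in Rab44-KO under normal conditions, and 3980 and 2651 after OVA. The 3 other libraries lay between 187 and 205 CPM, and OVA-induced Rab44-KO lay at 136 CPM. Its log2FC against OVA-induced WT was -0.60 (-0.67 to -0.52). Pcsk7, whose exons overlap those of Tagln on the other strand, had 4805, 4282, 4744 and 3465 counts and was also lowest in that library.

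Acta2 had 7586 counts in WT and 5640 in Rab44-KO, a log2FC of -0.44 (-0.49 to -0.39). Actg2 had 831 and 611 counts, a log2FC of -0.45 (-0.61 to -0.30). Myh11 was slightly higher in the Rab44-KO library, with 6236 counts against 5483 and a log2FC of 0.18 (0.12 to 0.23). Cnn1 (942 and 947 counts), Des (2490 and 2524) and Lmod1 (662 and 669) had log2FC of 0.00, 0.01 and 0.01. The counting interval lay above 0 for Myh11 and both receptors, against 29.7% of all genes, and below 0 for Acta2, Actg2 and Tagln, against 33.8%.

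The receptors differed in the opposite direction to the actins. Chrm2 was 2.03-fold higher without Rab44, a log2FC of 1.02 (0.83 to 1.21). With the length trend described below removed, its log2FC was 0.83, which is under 2-fold. Chrm3 was 1.78-fold higher, a log2FC of 0.83 (0.31 to 1.37). Their levels in OVA-induced Rab44-KO, 34.3 and 4.41 CPM, stood nearer to the normal libraries than to OVA-induced WT. The heart muscle list was higher in this library too, as given above.

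The log2FC of this comparison also varied with gene length over all genes. Gene length was taken as the relative length implied by the deposited counts and TPM. With the genes in 5 bins of equal size, the median log2FC was -0.41 in the bin of the shortest genes, and -0.25, -0.09, 0.11 and 0.37 in the next 4 bins. Actg2 lay at the 13.6th percentile of length and Tagln at the 18.5th, while Chrm2 lay at the 76.3rd and Myh11 at the 79.9th. Acta2 lay at the 40.1st percentile, and its log2FC of -0.44 stood below the median of its bin.

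With a running median along length removed, the log2FC was -0.05 for Actg2, -0.25 for Tagln and -0.25 for Acta2. On this scale Myh11 changed sign, to -0.03, and Chrm2 came to 0.83, no longer over 2-fold, and Chrm3 to 0.76. Cnn1 came to 0.28 and Des to 0.17. Among 22 other structural genes of smooth muscle, Myl6, the gene of the essential myosin light chain, had the lowest log2FC, -0.87, and lay at the 7.47th percentile of length. The same bins ran from -0.04 to 0.06 in the normal comparison and from -0.14 to 0.11 with OVA in Rab44-KO. With OVA in WT they ran the other way, at 0.19, 0.12, 0.03, -0.06 and -0.21. With the trend removed there, Acta2 came to 0.55 and Actg2 to 0.48. Cnn1 came to -0.51 and Tagln to -0.14 on that scale, and Chrm2 to -1.14 and Chrm3 to -0.89. The source of the relation to length was not tested.

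**Figure D4:**
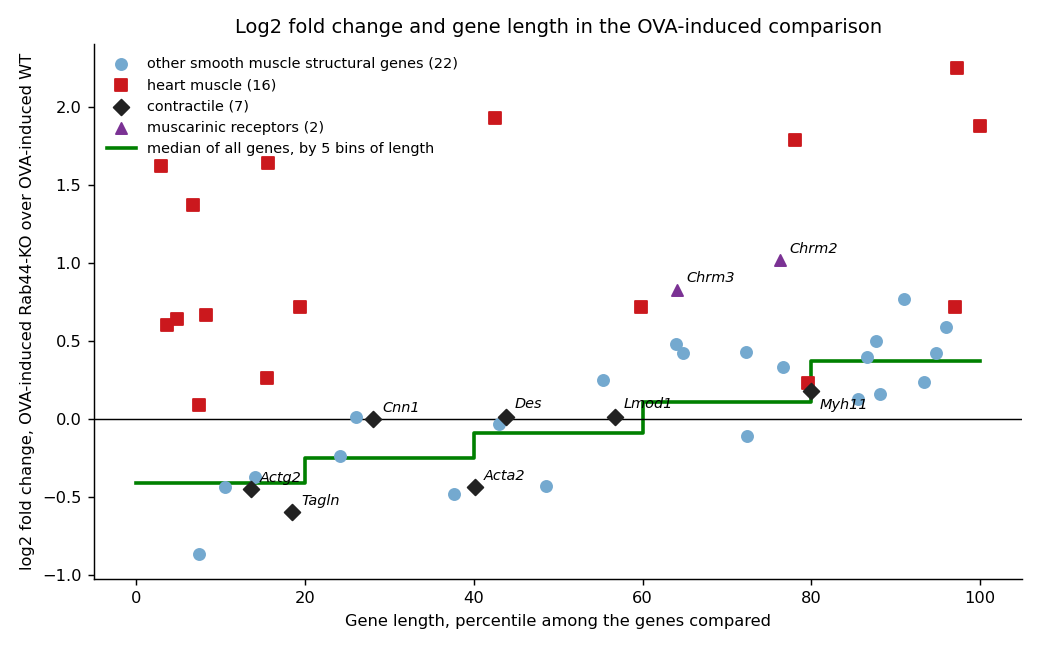
Log2FC of OVA-induced Rab44-KO over OVA-induced WT (y axis) against the percentile of gene length among the 19259 genes compared (x axis), for the 7 contractile genes, the 2 muscarinic receptors, 22 other smooth muscle structural genes and 16 heart muscle genes. The step line is the median of all genes in each of 5 bins of length, from -0.41 to 0.37; Myl6, at -0.87, is the lowest of the 22 other structural genes, and all 16 heart muscle genes lie above 0.

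In Rab44-KO mice, OVA-induced was compared with normal for the response to OVA without Rab44. No member was over 2-fold higher, against 6.44% of the 19073 genes compared, and none was over 2-fold lower, against 3.85%. The median log2FC of the members was 0.01 and that of all genes -0.01. Acta2 had 4600 and 5640 counts, a log2FC of 0.20 (0.14 to 0.26), and Actg2 had 479 and 611 counts, a log2FC of 0.26 (0.08 to 0.43). Lmod1 was higher, with a log2FC of 0.32 (0.15 to 0.49), Myh11 stood at 0.12 (0.07 to 0.17), and Cnn1 at 0.01 and Des at -0.05 were level. Tagln was lower, with a log2FC of -0.46 (-0.53 to -0.38). Chrm2 had 813 and 669 counts, a log2FC of -0.38 (-0.53 to -0.23), and Chrm3 had 94 and 86 counts, a log2FC of -0.22 (-0.66 to 0.21). The interval lay above 0 for 4 members, against 25.4% of all genes, and below 0 for Tagln and Chrm2, against 26.6%.

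The response to OVA in Rab44-KO was then set against that in WT, as a difference of log2FC values with its counting interval. This difference is not independent of the comparisons above, since all of them share libraries. It was -0.43 (-0.50 to -0.35) for Acta2, -0.39 (-0.63 to -0.16) for Actg2 and -0.48 (-0.57 to -0.38) for Tagln. With the length trend removed, the responses of Actg2 were 0.48 in WT and 0.41 in Rab44-KO, much closer than above. Those of Tagln were -0.14 and -0.31, also closer, with the WT sign turned, and those of Acta2 were 0.55 and 0.26. For Myh11, Cnn1 and Lmod1 the difference was 0.22, 0.38 and 0.27, and for Des it was -0.01. With the length trend removed, the Myh11 responses were -0.02 in WT and 0.02 in Rab44-KO, while those of Cnn1 lay further apart, at -0.51 and 0.13. Those of Lmod1 were 0.05 and 0.32, and those of Des -0.07 and 0.01. Chrm2 gave 0.90 (0.66 to 1.14) and Chrm3 0.69 (0.00 to 1.39), and their responses with the trend removed were -1.14 and -0.39 for Chrm2 and -0.89 and -0.25 for Chrm3. With 1 library in each group, the spread between mice behind these values is unknown.

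Other genes of the contractile apparatus were read as a list of 22, and 0 of them passed 2-fold in any of the 4 comparisons. Over all genes, the shares past 2-fold in either direction were 4.77% between the normal libraries and 15.7% between the OVA-induced libraries. They were 14.2% with OVA in WT and 10.3% with OVA in Rab44-KO. In OVA-induced WT against normal WT, 17 of the 22 were lower, with a median log2FC of -0.22 and a range of -0.84 to 0.41. In OVA-induced Rab44-KO against OVA-induced WT, 14 were higher and 8 lower, with a median of 0.20. Mylk, the myosin light chain kinase that starts contraction, had 8910, 7908, 7321 and 9757 counts over the 4 libraries. Myl9, the regulatory light chain that it phosphorylates, had 1932, 1945, 2290 and 1702 counts. In the OVA-induced comparison their log2FC values were 0.40 and -0.44. Mylk lay at the 86.6th percentile of length and Myl9 at the 10.5th, where the medians of all genes in their bins were 0.37 and -0.41. Csrp1, a LIM protein of smooth muscle, had 14380, 9711, 13840 and 9973 counts and was lower in both Rab44-KO libraries, with log2FC of -0.49 and -0.48. The medians in the normal and the Rab44-KO comparisons were -0.04 and 0.00.

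Transcription factors of smooth muscle were a list of 9, and 8 of them reached 10 counts. Myocd, the cofactor that drives the contractile genes, had 109, 120, 134 and 171 counts. Srf, the factor it binds, had 1324, 1273, 1451 and 1221 counts. Klf4, a repressor of the contractile genes that many lung cell types express, had 2342, 2518, 3541 and 6730 counts. It was the 1 gene of these 8 over 2-fold higher with OVA in Rab44-KO mice, against 6.44% of all genes. Its log2FC was 1.32, while the median of the list was 0.34. In OVA-induced Rab44-KO against OVA-induced WT, Klf4, Mrtfb and Foxf1 had log2FC of 0.92, 0.94 and 0.83. No gene of the list passed 2-fold there, against 15.7% of all genes in either direction.

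The other muscarinic and the adrenergic receptors were a list of 12, and 8 of them reached 10 counts. Chrm1 had 29, 16, 17 and 18 counts in the 4 libraries, and Chrm4 and Chrm5 had at most 4 and 1 counts. Chrm2 and Chrm3 were therefore the muscarinic receptors with the most counts in these lungs. Adrb1, the β1 receptor, was lower in both OVA-induced libraries, with 1589, 1597, 1038 and 1041 counts and log2FC of -0.63 in WT and -0.71 in Rab44-KO. Adrb3 was also lower in both, with 321, 268, 159 and 171 counts. Between the OVA-induced libraries the log2FC was -0.01 for Adrb1 and 0.10 for Adrb3, both with intervals that included 0.

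α-adrenergic receptors held the largest differences of this list. Adra2a, an inhibitory receptor, had 25, 20, 269 and 25 counts, and its log2FC was 3.41 (2.82 to 4.07) with OVA in WT and -3.43 (-4.09 to -2.84) between the OVA-induced libraries. It was high in the OVA-induced WT library alone. Adra1a, which contracts smooth muscle, had 613, 581, 605 and 1322 counts and was high in the OVA-induced Rab44-KO library, with a log2FC of 1.12 (0.98 to 1.26) against OVA-induced WT. Heart muscle expresses Adra1a as well.

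**Figure D5:**
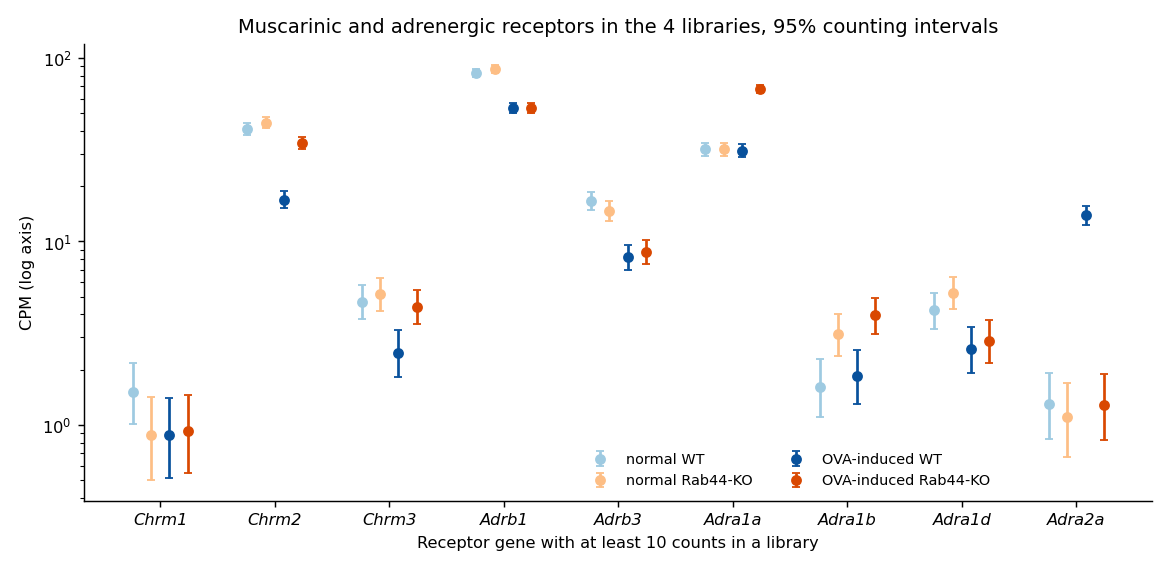
CPM (y axis, log scale) of 9 muscarinic and adrenergic receptor genes that reached 10 counts in a library, 1 point per library with its 95% Poisson counting interval. Chrm2 and Chrm3 are low in OVA-induced WT, Adrb1 and Adrb3 are low in both OVA-induced libraries, Adra1a is high in OVA-induced Rab44-KO, and Adra2a is high in OVA-induced WT.

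Receptors for other agents that act on airway muscle were a list of 29, and 27 of them reached 10 counts. In OVA-induced WT against normal WT, 4 were over 2-fold higher and 2 over 2-fold lower, against 8.99% and 5.2% of all genes, with a median log2FC of 0.06. In OVA-induced Rab44-KO against OVA-induced WT, 3 were higher and 5 lower by that measure, against 8.4% and 7.34% of all genes, with a median of 0.02. Ptgir, the prostacyclin receptor, had 174, 212, 547 and 156 counts and was highest in OVA-induced WT. Tacr1, the substance P receptor, had 29, 44, 122 and 49 counts and was highest in the same library. Npr3, a clearance receptor for natriuretic peptides, had 1831, 2196, 1281 and 4479 counts and was highest in OVA-induced Rab44-KO, with a log2FC of 1.8 (1.71 to 1.89) against OVA-induced WT. These genes are also expressed by immune and endothelial cells, which whole-lung RNA holds too.

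Below the receptors, 34 genes of G proteins, phospholipase C and cyclic nucleotide signalling were counted. In OVA-induced WT against normal WT, 25 were lower and 9 higher, with a median log2FC of -0.21. Of the 34, 1 was over 2-fold lower, against 5.2% of all genes. In OVA-induced Rab44-KO against OVA-induced WT, 24 were higher and 10 lower, with a median of 0.29, and 3 of the 34 were over 2-fold higher, a share close to the 8.4% of all genes. The relation to gene length given above was not removed from the values of this list or of any other list read beside the members. By the rule of size the genes named were Arhgef12, a guanine nucleotide exchange factor, with a log2FC of 1.21, Prkg1, the cyclic GMP-dependent kinase, with 1.16, and Plcb4, a phospholipase C, with 1.04. Prkg1 had 743, 751, 344 and 776 counts and was low in OVA-induced WT, as Chrm2 was.

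Calcium handling and ion channel genes were a list of 18. In OVA-induced WT against normal WT, 3 were over 2-fold lower, against 5.2% of all genes, and 13 had a log2FC below 0. In OVA-induced Rab44-KO against OVA-induced WT, 3 were over 2-fold higher, against 8.4% of all genes, with a median of 0.37. Those named by size were Pln, with 279, 334, 127 and 529 counts, Casq2, with 233, 223, 89 and 239 counts, and Kcnq5, with 324, 260, 127 and 295 counts. Phospholamban (Pln) and calsequestrin 2 (Casq2) are calcium store proteins of heart as well as smooth muscle, and their part in the smooth muscle signal was not tested.

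Pericyte and vascular smooth muscle genes were counted as a list of 13, and 2, Abcc9 and Ednrb, were over 2-fold lower in OVA-induced WT than in normal WT, against 5.2% of all genes. Between the OVA-induced libraries 8 were higher and 5 lower in Rab44-KO, with a median log2FC of 0.29, and 2, Abcc9 and Notch3, were over 2-fold higher, against 8.4% of all genes. Abcc9, a channel subunit of pericytes, had 469, 466, 233 and 524 counts, and Ednrb, an endothelin receptor, had 3008, 2951, 1389 and 2489. Notch3 had 2763, 3076, 1873 and 4093 counts. Pdgfrb, with 2817, 2741, 2250 and 2838 counts, and Rgs5, with 227, 241, 215 and 299 counts, were closer to level.

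Markers of other tissues that a lung sample can hold were read as well. Of the 10 skeletal muscle genes, 6 or 7 had under 10 counts in each library, and their summed level was 7.13 to 12.8 CPM. The 10 cartilage genes summed to 17.0 to 30.2 CPM and the 11 genes of nerves and glia to 9.44 to 16 CPM. Myh4 of skeletal muscle, Acan and Col9a1 of cartilage, and Chat of airway nerve cells were at 0 in all 4 libraries. Airway epithelium, with 10 genes, summed to 26453, 26804, 18591 and 21438 CPM. The 8 mesothelial genes summed to 363, 438, 494 and 454 CPM and the 8 eosinophil genes to 106, 103, 209 and 133 CPM. Airway epithelium and eosinophils thus also differed between the OVA-induced libraries, and their part in the levels above was not tested.

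Among the genes outside the lists whose profile over the 4 libraries lay nearest to the median profile of the contractile genes were Tmem143, Csnk2a1, Ptcd2 and Arfgap1. Likeness was the Euclidean distance of centred log2 CPM over 4 libraries, and it was 0.008 to 0.023. The median profile was nearly flat, spanning 0.19 in log2 CPM, and 1860 of the 13716 genes with enough counts lay within 0.2 of it.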

How the data were processed

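Per the labels and the study's methods, the authors used HISAT2 to align trimmed 150-bp paired-end reads of a directional library to the mouse genome GRCm38, and featureCounts for the counts, with versions not given in the sources used here. They deposited raw counts and TPM for 41079 genes in 4 libraries. The start positions in the deposited files differ from GENCODE M21 on GRCm38, from which positions were taken here. Counts were scaled with TMM over the 4 libraries (edgeR 4.0.16), and log2FC of CPM was computed with a small prior count where a gene reached 10 counts in either library compared. Genes over 2-fold were counted. Intervals of 95% are exact, binomial for ratios and Poisson for levels, and cover counting error only. The study names DESeq2, whose test was not run here, since each comparison of 2 single libraries has no replicates. DESeq2 1.42.0 size factors were an alternative.

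Named genes were all 9 members and, from each other list, the 3 genes with the largest absolute log2FC between the OVA-induced libraries and at least 100 counts, plus Myl9, Mylk, Myocd, Srf, Adrb1 and cell type markers. Csrp1, Adrb3 and the low-count muscarinic receptors were named after their values were seen. Members and lists were chosen with earlier results of these data known. The rule for the set also mentions β-adrenergic receptors, which it does not list, so Adrb1 and Adrb3 were read with the receptors. Some named items are not reported here.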

Additional observations from a re-analysis of the deposited data

Results flagged for a closer look

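Myh11 had OVA responses of opposite sign in the 2 genotypes, with a log2FC of -0.10 in WT and 0.12 in Rab44-KO. The difference was 0.22 (counting interval 0.15 to 0.30) with 1 library per group, and it was not tested. Its counts were 5835 and 5483 in the WT libraries and 5378 and 6236 in the Rab44-KO libraries. With the length trend removed the responses were -0.02 in WT and 0.02 in Rab44-KO.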

How the results depend on the processing

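DESeq2 size factors, TMM on the compared pair alone, a prior count of 2 and count minimums of 1 and 50 left all 36 member values within their counting intervals, total counts left 34, removal of the length trend 22 and TPM with a pseudocount of 0.1 left 17. TPM shifted all genes, with a median log2FC of 0.29 for OVA-induced Rab44-KO over OVA-induced WT and -0.16 for OVA-induced WT over normal WT, and the members' medians there came to 0.33 and -0.22. Between the OVA-induced libraries 1 of 9 members was over 2-fold in either direction (15.7% of all genes), 3 at 1.5-fold (35.8%), 2 with TPM (17.5%) and 0 with the length trend removed (14.7%). Between the WT libraries the counts were 1 (14.2%), 4 at 1.5-fold (28.3%) and 2 with TPM (12.5%). The cause of these moves was not tested, apart from the shift of all genes with TPM. No value over 2-fold changed sign. Myh11 between the OVA-induced libraries came to -0.03 with the length trend removed and 0.5 with TPM, against 0.18. No paired analysis was possible because each group has 1 library and the labels carry no replicate numbers, and leaving out a library would remove its group. A fit of genotype and OVA as additive terms over the 4 libraries was not run. The spread between mice is unknown, and Chrm3, with 48 to 94 counts, is limited by depth.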
